A study of Homo sapiens with 34 samples.

Results

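The 10 genes described here, GAP43, STMN2, STMN4, NEFL, NEFM, INA, TUBB3, ELAVL4, NPY and VIP, are named for neuronal differentiation and neurite growth and were chosen by name, out of 19970 protein-coding genes. Histone marks around them were read in KELLY, a widely used neuroblastoma cell line of human origin in which MYCN is amplified. Per the study's methods, the cells were a stable line that carried a doxycycline-inducible shRNA against RUNX1T1, a transcriptional corepressor subunit, in the pFH1UTG vector. One group received DMSO and the other doxycycline for 72 h, so both groups held the hairpin construct, and doxycycline itself and loss of RUNX1T1 cannot be told apart in this design. For each of 5 histone marks there were 3 libraries per treatment, which gave 30 peak lists. A peak is a stretch of DNA where the caller found more immunoprecipitated than input fragments. The labels do not say whether the replicates came from separate cultures, so p-values measure only the spread between these samples, which may be technical.

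The marks stand for different chromatin states. H3K4me3 and H3K4me2 lie at start sites that are open for transcription, H3K4me1 flanks them and marks enhancers, H3K27ac marks active promoters and enhancers, and H3K27me3 is set down by Polycomb repressive complex 2 over silenced developmental genes. In sympathetic neuroblasts, the cells from which neuroblastoma arises, growth-cone and cytoskeletal genes are switched on as neurites extend, and neuropeptides such as NPY and VIP are made as the cells mature. A start site that carries both H3K4me3 and H3K27me3 is usually called bivalent.

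The calling depth (the smaller of ChIP and input reads) was 71.9 to 81.1 M for DMSO lists but 57.0 to 63.4 M for doxycycline lists, and the H3K27ac lists held 55153 to 71603 and 48171 to 60292 peaks, respectively. In the H3K27me3 set, the fragment length estimated by the caller was 256 bp in DMSO replicate 1, 265 and 280 bp in doxycycline replicates 1 and 2, and 105 to 112 bp in the other 3 libraries. Peak lists hold no RNA measurement, so the knockdown was not checked here. The sympathetic markers PHOX2A, HAND1, HAND2, GATA2, GATA3, ISL1, TH, DBH and CHGA had both H3K4me3 and H3K27ac peaks at a start site (within 1 kb) throughout the 6 libraries of each mark, and none had H3K27me3. Of 10 markers of other cell types, 8 had no H3K27ac peak there in any library, while EPCAM and SOX10 had one in all 6.

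Start-site sequences are shown for 4 genes, so that the base composition can be set beside the peaks. NPY and VIP differed in which marks had a start-site peak, and GAP43 and ELAVL4 in the length under H3K27ac peaks. The sequences are windows of 300 bases around the RefSeq start (GRCh38.p14, all on the plus strand). Capitals mark the letters TATAAA where they occur on either strand. GAP43 lies at chr3:115623260-115623559, ELAVL4 at chr1:50109583-50109882, NPY at chr7:24283940-24284239 and VIP at chr6:152750547-152750846. The ELAVL4 window does not contain the canonical start site (chr1:50108920) from which distances along ELAVL4 are given below, and this gene has 18 annotated start sites.
GAP43: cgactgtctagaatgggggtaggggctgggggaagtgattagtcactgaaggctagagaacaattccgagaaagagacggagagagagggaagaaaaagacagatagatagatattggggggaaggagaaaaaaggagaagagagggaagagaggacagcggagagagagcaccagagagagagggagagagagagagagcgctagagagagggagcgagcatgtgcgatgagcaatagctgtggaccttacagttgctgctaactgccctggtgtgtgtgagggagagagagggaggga
ELAVL4: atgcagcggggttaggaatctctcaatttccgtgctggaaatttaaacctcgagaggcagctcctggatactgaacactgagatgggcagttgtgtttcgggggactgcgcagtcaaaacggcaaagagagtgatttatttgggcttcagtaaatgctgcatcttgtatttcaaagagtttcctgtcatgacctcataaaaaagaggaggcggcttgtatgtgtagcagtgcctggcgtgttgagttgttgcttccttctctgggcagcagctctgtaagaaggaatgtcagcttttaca
NPY: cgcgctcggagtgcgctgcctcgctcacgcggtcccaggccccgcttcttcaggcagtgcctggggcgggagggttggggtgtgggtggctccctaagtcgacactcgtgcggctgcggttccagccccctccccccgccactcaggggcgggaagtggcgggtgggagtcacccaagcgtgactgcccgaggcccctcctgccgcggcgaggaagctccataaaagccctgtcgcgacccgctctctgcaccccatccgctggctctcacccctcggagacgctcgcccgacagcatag
VIP: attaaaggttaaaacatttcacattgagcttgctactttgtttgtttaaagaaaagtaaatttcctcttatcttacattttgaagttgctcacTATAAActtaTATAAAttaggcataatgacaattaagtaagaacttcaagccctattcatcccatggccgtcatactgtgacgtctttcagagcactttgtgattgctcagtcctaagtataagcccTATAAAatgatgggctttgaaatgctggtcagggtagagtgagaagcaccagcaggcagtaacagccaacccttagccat

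The VIP window, beside a start site without H3K4me3 in any library, held 2 CpG dinucleotides and had an observed-to-expected CpG ratio of 0.192, at the 11.8th percentile of 15315 protein-coding promoters of this length. It held TATAAA 3 times on the gene's own strand, once from base -30 to base -25 relative to the start, and 9.64% of the promoters held these letters on either strand. The NPY window held 29 CpG dinucleotides with a ratio of 0.771, close to the median of 0.768, and INA held 35 with a ratio of 0.958. GAP43, ELAVL4 and TUBB3 had ratios of 0.509, 0.504 and 0.284. These 6 members matched the RefSeq table. Of the other motifs searched on both strands, CATCTG was found only in the INA window (11.5% of promoters held it), and CACGTG (8.88%), TGTGGT (10.9%) and TGACGTCA (2.64%) were found in none of the 6 windows.

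Nearly all of these start sites carried the marks of active promoters under both treatments. A peak counted as present where it overlapped 1 kb on either side of a start site. H3K4me3 was present in all 6 libraries at 9 of 10 genes, and 71.9% of all protein-coding genes were in this state. H3K4me2 covered the same 9 genes (background 71.8%). H3K27ac was present in all 6 libraries at every member but NPY, again 9 of 10, against 64.2% of all genes. H3K4me1 was there in all 6 libraries at 7 of 10 genes (background 61.4%), and was missing in 1 doxycycline library at STMN2, in 1 library of each treatment at NEFL and in all but doxycycline replicate 1 at NEFM. No member had H3K27me3 at a start site in all 6 libraries, where 20.1% of all genes did. NPY was the only member with any such peak, and 64.4% of all genes had none in any library. GAP43, STMN4, ELAVL4, TUBB3 and INA shared one presence pattern over the 30 lists, with every mark but H3K27me3 in all libraries, and 38.5% of all genes had it. The median width of the widest start-site peak was 3.88 kb over 9 members for H3K4me3 and 4.63 kb over 9 members for H3K27ac, beside 2.20 and 2.39 kb over all genes with a peak in all 6 libraries.

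**Figure D1:**
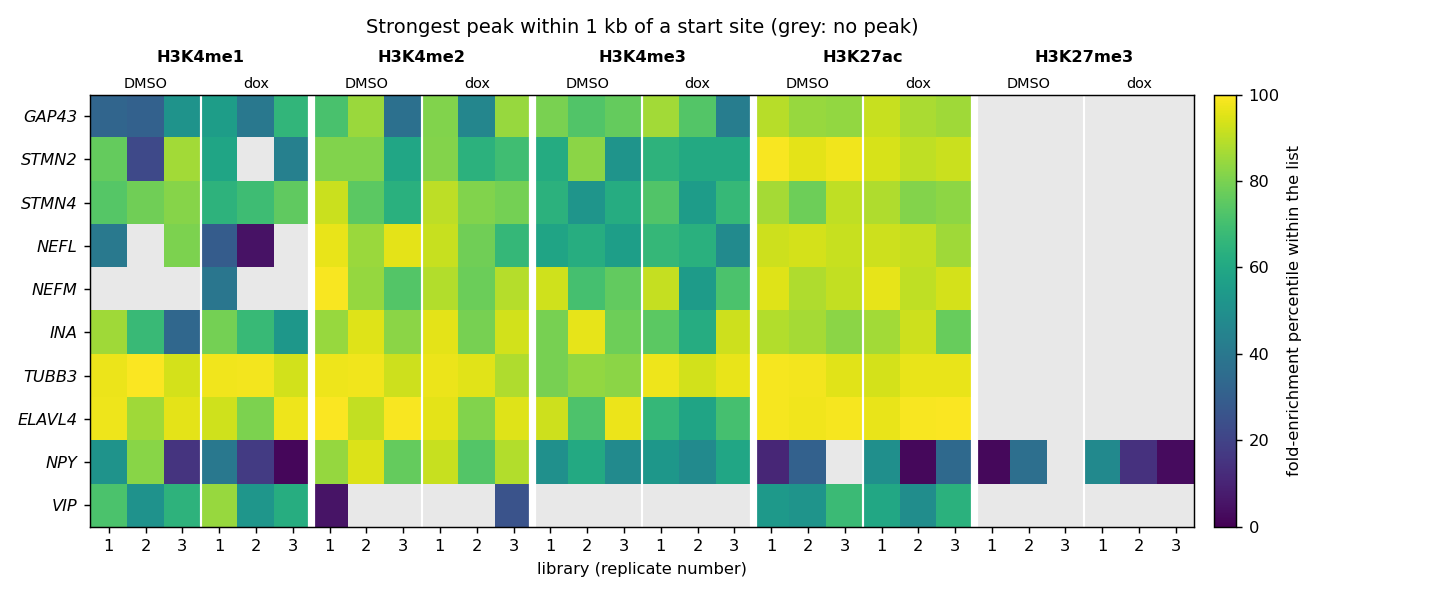
Strongest peak within 1 kb of a start site of each gene (rows) in each of the 30 libraries (columns, by mark, treatment and replicate), coloured by its fold-enrichment percentile within the list. H3K4me3 is present at 9 of 10 genes in all 6 libraries and absent at VIP, and H3K27me3 is present at NPY alone.

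No member separated the treatments at its start sites, that is, none had a peak in 3 of 3 libraries of one treatment and 0 of 3 of the other for any mark. Few genes did so in all: 0.315% for H3K4me1, 0.0300% for H3K4me2, 0.130% for H3K4me3, 0.330% for H3K27ac and 0.190% for H3K27me3. Differences between the treatments were therefore read from the length under peaks and from ranks. For each gene, the length under peaks was summed over the gene body and 50 kb on each side. The smallest two-sided p that an exact permutation test of 3 against 3 libraries can give is 0.1, so no single gene could pass 0.05 in that test. Where a number has a limma test, the fit ran across all genes on log2(covered kb + 1), and the replicate block in it compares libraries of the same number.

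For H3K27ac, 1 member (ELAVL4) had more covered length in every doxycycline than every DMSO library, and 3 (GAP43, NEFL and NEFM) had less. Over all genes, 3.30% were longer and 11.4% shorter in this sense. For H3K4me3, STMN2 alone was shorter and none was longer, against 4.82% and 1.51% of all genes. No member was called in either direction for H3K4me1 (background 1.45% longer, 5.84% shorter), H3K4me2 (0.536% and 0.471%) or H3K27me3 (0.766% and 0.0651%). The lowest p adjusted over all genes for these exact permutation tests was 0.68. The calling depth was lower in doxycycline for every mark, and its part in the longer or shorter cover was not tested.

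**Figure D2:**
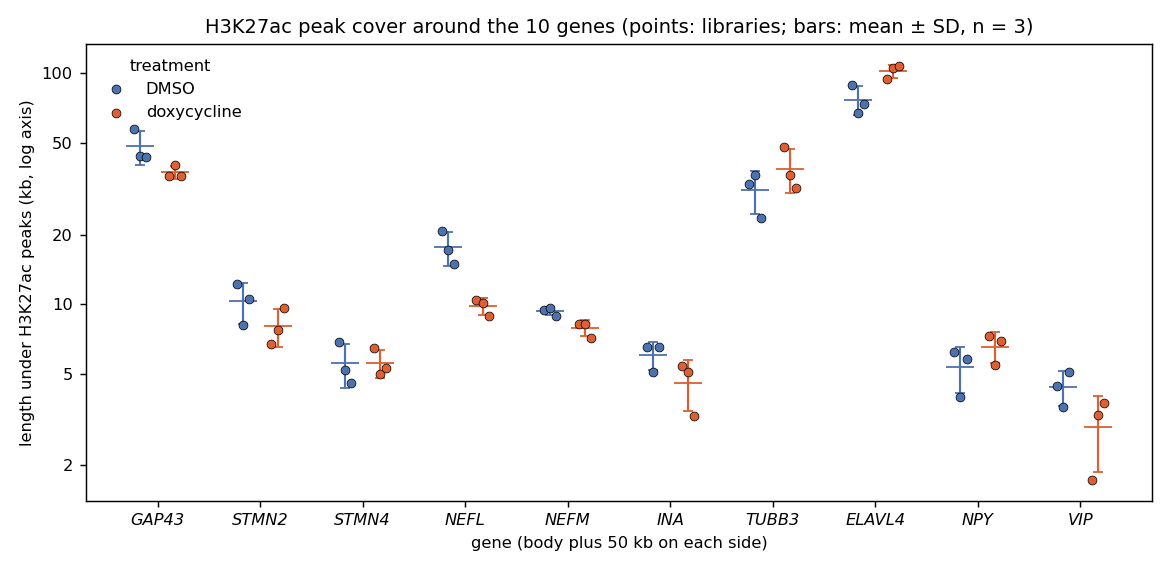
Length under H3K27ac peaks in the gene body and 50 kb on each side (kb, log axis) for each gene, with 1 point per library and the mean ± SD of 3 libraries. ELAVL4 sits higher in all 3 doxycycline libraries (94.7 to 107 kb) than in the DMSO libraries (67.5 to 89.0 kb), and NEFL sits lower (8.89 to 10.4 against 14.9 to 20.8 kb).

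GAP43 encodes a growth-cone phosphoprotein that is attached to the membrane and is a classic marker of axon outgrowth. It spans 98.0 kb (chr3:115623510-115721490, plus strand) and has a single start site. The H3K4me3 peak there was 3.03 to 3.93 kb wide in the 6 libraries, and no other protein-coding gene had a start site within the 50 kb flanks. H3K27ac covered 57.6, 43.6 and 43.5 kb in DMSO replicates 1 to 3, and 35.8, 40.0 and 35.8 kb in the doxycycline replicates. All 3 doxycycline values lay under the lowest DMSO value, with means of 48.2 ± 8.12 and 37.2 ± 2.41 kb (SD, n = 3; exact permutation p = 0.10). In limma the difference was -0.36 ± 0.19 (SE, log2), with an adjusted p of 0.53, and 0.12 with the replicate block. The groups overlapped when only peaks of −log10 q of 3 or more were kept, with flanks of 25 kb (log2 ratio of means -0.18 in place of -0.37) and over the gene body alone.

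The shortening at GAP43 lay away from the start site. Over the start-site region itself, the cover was 4.53, 4.77 and 3.70 kb in DMSO and 4.47, 4.92 and 5.68 kb in doxycycline, so the groups overlapped there. A region 33.6 to 37.2 kb upstream (chr3:115586326-115589861, intergenic) held H3K27ac in 3 of 3 DMSO libraries, with 2.39, 1.87 and 1.05 kb, and in 0 of 3 doxycycline libraries, while H3K4me1 was present in all 6. The 3 DMSO peaks had no base in common. An intronic region 80.5 to 92.5 kb downstream of the start held 12.1, 8.64 and 8.32 kb in DMSO and 7.59, 7.11 and 7.28 kb in doxycycline. A region 136 to 142 kb downstream, past the gene's end, held 4.84, 2.09 and 3.67 kb against 0.948, 1.24 and 1.12 kb. This region and the intronic one were chosen after their values were seen. Like the upstream region, they are parts of the cover already called shorter, so their separation is not further support. The widest distal region present in all 6 libraries, an intronic stretch of 13.4 kb, did not separate the treatments (10.9 to 12.5 kb in DMSO, 9.51 to 11.5 kb in doxycycline). H3K4me1 around GAP43 averaged 49.9 ± 7.88 kb in DMSO and 38.5 ± 3.22 kb in doxycycline (SD, n = 3), with overlapping groups. It fell by 0.36 on the log2 scale in limma with the replicate block (adjusted p = 0.0097), and gave an adjusted p of 0.75 without the block. Of 18690 genes tested for H3K4me1, the fit with the block called 2601 lower and 351 higher (adjusted p under 0.05).

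STMN2 and STMN4 encode stathmins, which bind tubulin dimers and promote microtubule turnover in growing neurites. STMN2 (chr8:79611117-79666158, plus strand) had its H3K4me3 and H3K27ac peaks over the start site in every library. H3K4me3 around STMN2 covered 5.27, 4.02 and 4.33 kb in DMSO and 3.80, 3.46 and 3.30 kb in doxycycline. Every doxycycline value lay under every DMSO value (means 4.54 ± 0.651 and 3.52 ± 0.254 kb, SD, n = 3; exact permutation p = 0.10). The limma difference was -0.29 on the log2 scale, with an adjusted p of 0.86 without and 0.046 with the replicate block. Of 17835 genes tested for H3K4me3, the fit with the block called 199 lower and 172 higher.

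At STMN2, the H3K27ac peak at the start site ranked at the 99.2, 96.0 and 97.7th percentile of its list by fold enrichment in DMSO and at the 94.1, 90.3 and 91.9th in doxycycline, without overlap. The lists differed in length, and the fold enrichments themselves overlapped, at 12.7, 8.89 and 7.02 in DMSO and 11.8, 8.74 and 6.75 in doxycycline. The widest distal H3K27ac region at STMN2, in an intron 19.1 to 22.1 kb downstream of the start, covered 3.03, 1.28 and 2.71 kb in DMSO and 0.632, 1.25 and 0.862 kb in doxycycline. H3K4me1 cover around STMN2 averaged 14.3 ± 5.50 kb in DMSO and 8.65 ± 2.09 kb in doxycycline, with overlapping groups. The limma difference was -0.61 (log2), with an adjusted p of 0.73 without and 0.021 with the replicate block, which called 2601 of 18690 genes lower.

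STMN4 (chr8:27235308-27258420, minus strand) had no cover that separated the treatments for any mark. Its H3K27ac cover was 5.53 ± 1.2 kb in DMSO and 5.56 ± 0.774 kb in doxycycline (SD, n = 3; exact permutation p = 1.0). A single distal H3K27ac region, 1.15 kb wide and 15.7 to 16.9 kb upstream, was present in all 6 libraries and carried no H3K4me1 peak. H3K27me3 near STMN4 covered 9.48, 0.460 and 0 kb in DMSO and 13.8, 7.85 and 0.144 kb in doxycycline, and it was high in the 3 libraries with long estimated fragments; the groups overlapped (longer in 3 of 3 same-numbered pairs), and the part of fragment length in this was not tested.

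NEFL and NEFM encode the light and medium neurofilament chains, which set axon calibre, and lie next to each other on chromosome 8. The 50 kb windows of NEFL (chr8:24950955-24956721, minus strand) and NEFM (chr8:24913758-24919098, plus strand) share most of their bases and are not independent. H3K27ac around NEFL covered 20.8, 17.1 and 14.9 kb in DMSO and 10.4, 10.1 and 8.89 kb in doxycycline. The lowest DMSO value was above the highest doxycycline value, with means of 17.6 ± 2.95 and 9.79 ± 0.791 kb (SD, n = 3; exact permutation p = 0.10). NEFL had the lowest log2 ratio of mean H3K27ac cover among the 10 genes, at -0.85. With limma it fell by 0.78 ± 0.11 (SE, log2) with the replicate block (adjusted p = 0.014), and the adjusted p was 0.08 without it. Of 17272 genes tested for H3K27ac, the fit with the block called 1323 lower and 431 higher.

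Most of the NEFL difference came from a cluster more than 30 kb upstream of its start site, on the side away from NEFM. The widest region of this cluster (chr8:24991359-25001473, overlapping exons of ENSG00000253832 and ENSG00000288055) was covered over 10, 6.88 and 4.65 kb in DMSO and over 2.15, 1.85 and 1.74 kb in doxycycline. The next region outward (chr8:25003029-25004245) held 1.04, 0.603 and 0.614 kb in DMSO and no peak in doxycycline. The outermost region (chr8:25006407-25011414) held 5.01, 4.35 and 3.31 kb in DMSO against 2.19, 1.67 and 0.754 kb in doxycycline. It lay almost wholly outside the window, which only its DMSO replicate 1 peak entered, so it added little to the NEFL difference. The regions inside the window are parts of the cover already called shorter, so their separation is not further support. H3K4me1 was present in all 6 libraries at the widest and the outermost region, and in 4 at the region between them. Within 25 kb of NEFL, the log2 ratio was -0.06, and over the gene body it was 0.06, so the start-site peak itself (2.28 to 2.67 kb in DMSO, 2.39 to 2.51 kb in doxycycline) differed little. With only peaks of −log10 q of 3 or more, the NEFL groups overlapped and the log2 ratio was -0.67.

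At NEFM, the difference lay at the start site. The H3K27ac region over the NEFM start covered 4.71, 5.87 and 5.24 kb in DMSO and 4.33, 4.08 and 3.56 kb in doxycycline, and the whole window averaged 9.33 ± 0.389 and 7.87 ± 0.626 kb (SD, n = 3; exact permutation p = 0.10; limma adjusted p = 0.64, and 0.25 with the replicate block). The start region is part of that window, so its separation is not further support. The H3K4me3 peak at the same place was 5.09 to 5.15 kb wide in DMSO and 3.56 to 4.93 kb in doxycycline. Both neurofilament genes lacked H3K27me3 within 50 kb in all 6 libraries. The 2.19 kb region between them (chr8:24940767-24942959) held H3K27ac and H3K4me1 in all 6 libraries, with 1.25 to 2.04 kb of H3K27ac in DMSO and 1.16 to 1.66 kb in doxycycline.

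**Figure D3:**
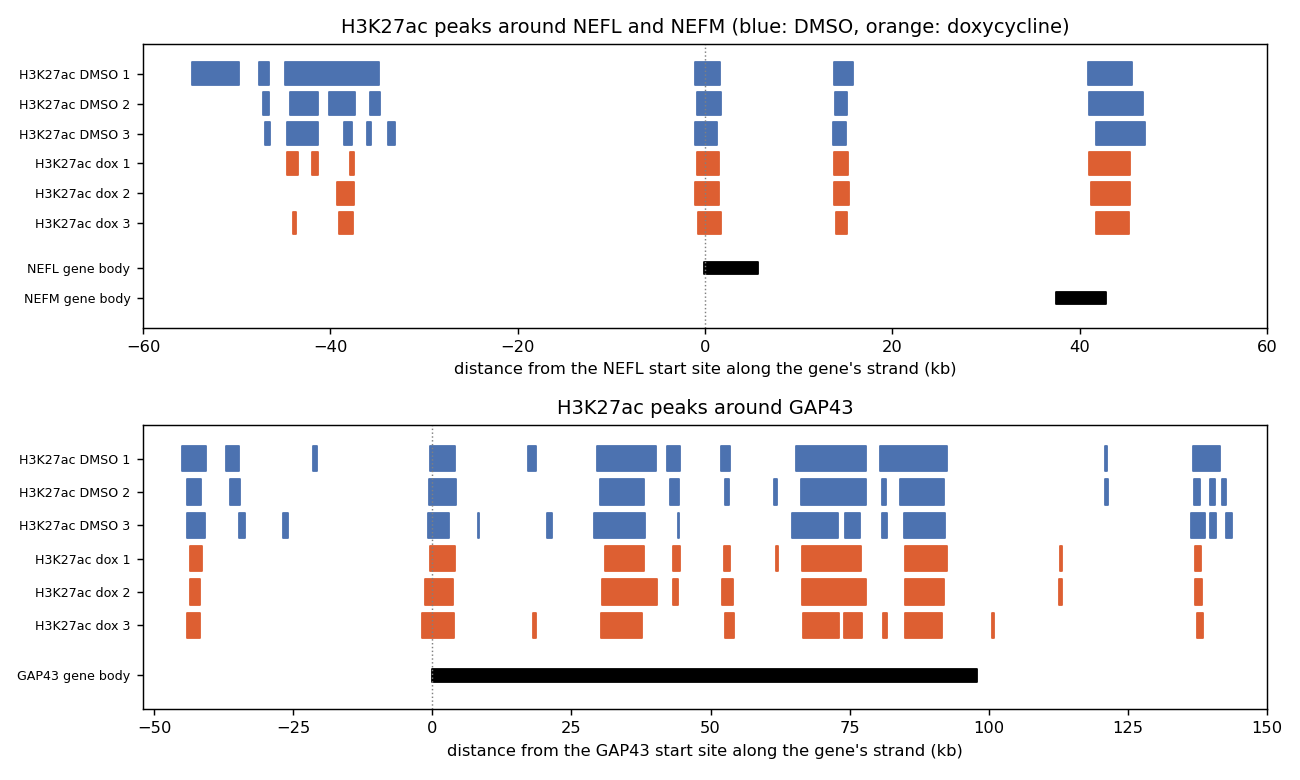
H3K27ac peaks of each library around NEFL and NEFM (upper panel) and GAP43 (lower panel), drawn by distance from the start site in kb, with DMSO in blue, doxycycline in orange and gene bodies in black. The cluster upstream of NEFL covers 4.65 to 10 kb in its widest region in DMSO and 1.74 to 2.15 kb in doxycycline.

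INA encodes alpha-internexin, a further neuronal intermediate filament that is made early in differentiation. It (chr10:103277138-103290346, plus strand) carried H3K4me1, H3K4me2, H3K4me3 and H3K27ac at its only start site in all 24 of those libraries. H3K27ac around INA covered 6.52, 5.06 and 6.49 kb in DMSO and 5.37, 5.08 and 3.27 kb in doxycycline, so the groups overlapped (exact permutation p = 0.30). A second H3K27ac region in the INA intron, 2.73 to 5.76 kb past the start, was present in all 6 libraries.

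TUBB3 encodes the neuronal class of beta-tubulin. Its window (gene at chr16:89921392-89938761, plus strand) also held the start sites of 4 other protein-coding genes (TCF25, MC1R, DEF8 and ENSG00000198211), so the cover there cannot be assigned to TUBB3 alone. H3K27ac lay over 33.2, 36.4 and 23.7 kb in DMSO and 47.8, 36.2 and 31.9 kb in doxycycline, 20.2 to 40.7% of the window, with overlapping groups (exact permutation p = 0.50). The top H3K4me3 peak of TUBB3 stood at the 79.6, 83.6 and 82.7th percentile of its list in DMSO and at the 97.4, 93.2 and 96.6th in doxycycline. All 3 doxycycline ranks were above the highest DMSO rank. The fold enrichments overlapped (35.2, 44.3 and 24.6 against 53.7, 50.7 and 32.7), while the width of that peak differed little (5.99 to 6.46 kb in DMSO, 5.74 to 6.19 kb in doxycycline).

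In all, the rank of the top start-site peak was higher in every doxycycline library at 1 member for H3K4me3 (TUBB3) and lower at 1 member each for H3K4me3 (ELAVL4) and H3K27ac (STMN2). Among genes with a peak in all 6 libraries, 7.62% were higher and 9.19% lower for H3K4me3, and 6.44% and 12.3% for H3K27ac. No member was called for H3K4me1 (background 6.94% higher, 7.39% lower) or H3K4me2 (5.94% and 5.34%). The adjusted p over all genes was 0.59 for the H3K4me3 ranks and 0.53 for the H3K27ac rank (exact permutation test).

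ELAVL4 encodes HuD, an RNA-binding protein that stabilises neuronal transcripts, GAP43 among them, and promotes neurite growth. The gene spans 180 kb (chr1:50024029-50203772, plus strand) with 18 annotated start sites spread over 153 kb. A start site of AGBL4 also lay in the window, so the cover there cannot be assigned to ELAVL4 alone. H3K27ac cover at ELAVL4 was the longest of the 10 genes. It came to 89.0, 67.5 and 73.9 kb in DMSO and 94.7, 105 and 107 kb in doxycycline. The lowest doxycycline value was above the highest DMSO value, with means of 76.8 ± 11 and 102 ± 6.44 kb (SD, n = 3; exact permutation p = 0.10). H3K27ac ChIP reads were 72.2, 76.8 and 77.7 M in DMSO and 74.4, 66.3 and 73.2 M in doxycycline. Input reads were 81.5, 74.5 and 81.5 M against 63.4, 57.0 and 63.4 M. The part of read depth in the longer cover was not tested. The share of the window covered was 24.1 to 31.8% in DMSO and 33.8 to 38.2% in doxycycline, which lay at or above the 90.6th percentile of all genes in every library. The limma difference was 0.41 ± 0.16 (SE, log2) with an adjusted p of 0.30, and 0.065 with the replicate block.

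The added length at ELAVL4 lay in the 3′ part of the gene and just past its end. Around the canonical start site, from -7.31 to 12.7 kb, the cover was 18.2 to 19.6 kb in DMSO and 16.7 to 19.9 kb in doxycycline. From 38.0 to 56.4 kb downstream, within introns (chr1:50146887-50165310), it was 7.54, 1.58 and 3.77 kb in DMSO and 15.4, 11.9 and 15.9 kb in doxycycline. From 57.7 to 102 kb downstream (chr1:50166597-50210806), where further start sites lie, it was 30.7, 20.2 and 25.2 kb against 36.4, 41.5 and 41.2 kb. Both stretches lay above the DMSO range in all 3 doxycycline libraries. They are parts of the cover already called longer, and the last one was chosen after its values were seen. Their separation is therefore not further support. The widest H3K27ac peak near any ELAVL4 start site was the one at the canonical start in DMSO (19.0, 17.2 and 19.6 kb) and a different one, in the last stretch, in doxycycline (26.7, 30.3 and 40.4 kb). H3K4me1 was present over both stretches in all 6 libraries. Its region within the first stretch (40.5 to 53.8 kb downstream) covered 9.56, 4.95 and 7.01 kb in DMSO and 12.2, 10 and 10.2 kb in doxycycline, without overlap, whereas its cover in the whole window overlapped between the groups (64.5 to 83.0 kb in DMSO, 75.0 to 91.9 kb in doxycycline).

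The main H3K4me3 region at ELAVL4, around the canonical start site, covered 12.2, 12.3 and 11.5 kb in DMSO and 13.7, 13.6 and 12.6 kb in doxycycline, without overlap, whereas the fold-enrichment percentile of the top peak was 92.3, 72.1 and 96.9 in DMSO and 66.6, 58.3 and 70.4 in doxycycline. The top H3K4me3 peak thus ranked lower in doxycycline while the region was longer, and the ranks overlapped when the canonical start site alone was used. H3K27me3 was absent from the start sites and covered less than 1 kb of the window in every library.

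**Figure D4:**
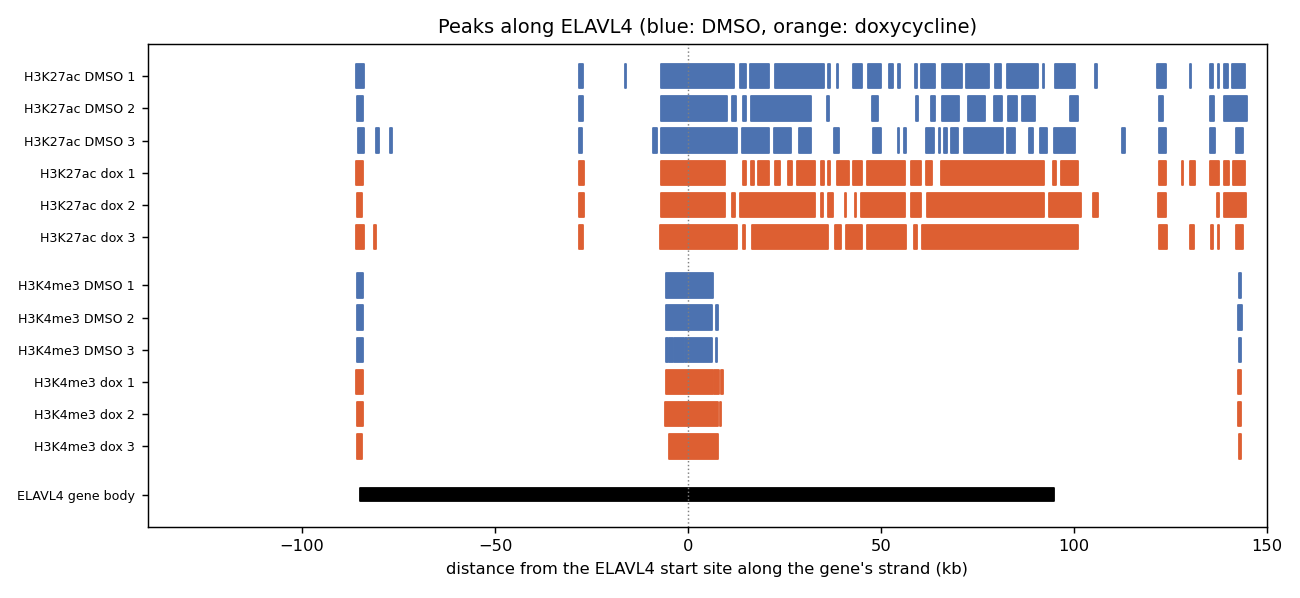
H3K27ac and H3K4me3 peaks of each library along ELAVL4, drawn by distance from the canonical start site in kb, with DMSO in blue, doxycycline in orange and the gene body in black. Beyond 38.0 kb the doxycycline libraries show long H3K27ac peaks (36.4 to 41.5 kb covered in the last stretch) where the DMSO libraries show shorter ones (20.2 to 30.7 kb).

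NPY encodes neuropeptide Y, a sympathetic co-transmitter. The gene (chr7:24284188-24291862, plus strand) was the only member with a Polycomb peak at its start site. H3K27me3 was present there in 2 of 3 DMSO and 3 of 3 doxycycline libraries, with low fold enrichments of 1.85 and 2.75 in DMSO and 2.28, 2.1 and 2.61 in doxycycline. These peaks were 0.223 to 2.1 kb wide. H3K4me3 was present in all 6 libraries, at fold enrichments of 13.3 to 28.9 and a width of 1.9 to 2.13 kb. In all, 11.5% of protein-coding genes had H3K4me3 in all 6 libraries together with H3K27me3 in at least 5. H3K27ac at the NPY start was weak, at 2.02 to 2.79-fold in 5 libraries, no higher than the 49.7th percentile, and missing in DMSO replicate 3. ITGA3, an integrin gene, was the only other gene with the same presence pattern as NPY over all 30 lists. That pattern depends on the weak H3K27ac and H3K27me3 calls, each missing in DMSO replicate 3, so its rarity does not show a rare chromatin state.

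Downstream of NPY, peaks of H3K27ac and of H3K4me1 differed between the treatments. A region 14.6 to 16.2 kb past the start (chr7:24298752-24300360, intergenic) held H3K27ac in 0 of 3 DMSO and 3 of 3 doxycycline libraries, with 0.700, 0.593 and 1.61 kb. H3K4me1 was present there in all 6 libraries. It was the only distal H3K27ac region near any of the 10 genes that was called in all 3 doxycycline and no DMSO libraries, where 0.670% of 79978 distal H3K27ac regions over all chromosomes had this pattern. For H3K4me1, another region 19.4 to 21.5 kb downstream of NPY (chr7:24303555-24305693, intergenic) had a peak in every doxycycline library and in no DMSO library, with 1.83, 1.01 and 2.03 kb. It was the only such one among 100 distal H3K4me1 regions near the 10 genes, beside 0.332% over all chromosomes, and none was called in the DMSO libraries alone in this sense (1.60% over all chromosomes). A further region 39.0 to 42.2 kb downstream covered 1.57, 0.829 and 1.16 kb in DMSO and 3.21, 1.92 and 1.73 kb in doxycycline, while the widest one, 49.3 to 52.8 kb downstream, did not separate the groups (1.91 to 3.39 kb and 1.43 to 2.30 kb). The whole NPY window averaged 5.32 ± 1.2 kb in DMSO and 6.55 ± 0.984 kb in doxycycline (SD, n = 3; exact permutation p = 0.30), longer in 3 of 3 same-numbered pairs. With flanks of 25 kb, the NPY groups no longer overlapped and the log2 ratio was 2.30 in place of 0.30. That ratio rests on little cover. In DMSO, this narrower window held only the start-site peaks of replicates 1 and 2 (0.677 and 0.850 kb) and no peak in replicate 3. The central 300 bases of the stretch shared by the 3 doxycycline peaks (hg38, chr7:24299116-24299415, plus strand) are shown because it was the only distal H3K27ac region near the members with this pattern, and capitals mark CATCTG.
NPY downstream region: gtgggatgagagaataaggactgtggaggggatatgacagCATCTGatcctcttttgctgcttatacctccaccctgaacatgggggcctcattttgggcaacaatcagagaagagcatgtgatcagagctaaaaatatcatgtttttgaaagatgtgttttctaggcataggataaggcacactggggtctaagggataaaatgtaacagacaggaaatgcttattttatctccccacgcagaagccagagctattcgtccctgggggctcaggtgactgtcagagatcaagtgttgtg

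The window held CATCTG once. Of 50272 distal H3K27ac peaks of DMSO replicate 1, 24.8% held these letters on either strand in their central 300 bases. CACGTG (4.52%), TGTGGT (18.3%), TGACGTCA (0.203%) and TATAAA (15.8%) did not occur in it.

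VIP encodes vasoactive intestinal peptide, a secreted peptide that raises cyclic AMP in its target cells. VIP (chr6:152750797-152759765, plus strand) differed from the other 9 genes by lacking H3K4me3 at its start sites in all 6 libraries, and no H3K4me3 peak lay anywhere within 50 kb of it. Among all protein-coding genes, 25.3% lacked a start-site H3K4me3 peak in every library. H3K4me2 was called near a start site only in DMSO replicate 1 and doxycycline replicate 3, at fold enrichments of 2.88 and 4.26. H3K4me1 and H3K27ac were nevertheless present in all 6 libraries. Only 1.18% of protein-coding genes had H3K4me1 and H3K27ac in all 6 libraries and H3K4me3 in none. No other gene had the exact pattern of VIP over the 30 lists, but that pattern depends on the weak H3K4me2 calls.

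The H3K27ac over VIP lay upstream of the start, from 3.15 kb before it to 0.409 kb past it. Its cover in this region was 3.32, 3.05 and 2.28 kb in DMSO and 1.03, 2.33 and 3.14 kb in doxycycline, so the groups overlapped. The top H3K27ac peak had fold enrichments of 2.64 to 3.20 and stood between the 49.1 and 68.3rd percentile of its list, whereas the top peaks of the other members apart from NPY stood at or above the 76.8th. The widest distal H3K27ac region near VIP was 24.4 to 25.5 kb downstream and was present in all 6 libraries, with H3K4me1. In the whole window, VIP averaged 4.37 ± 0.748 kb of H3K27ac in DMSO and 2.92 ± 1.06 kb in doxycycline (SD, n = 3; exact permutation p = 0.20; limma adjusted p = 0.42, and 0.16 with the replicate block).

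**Figure D5:**
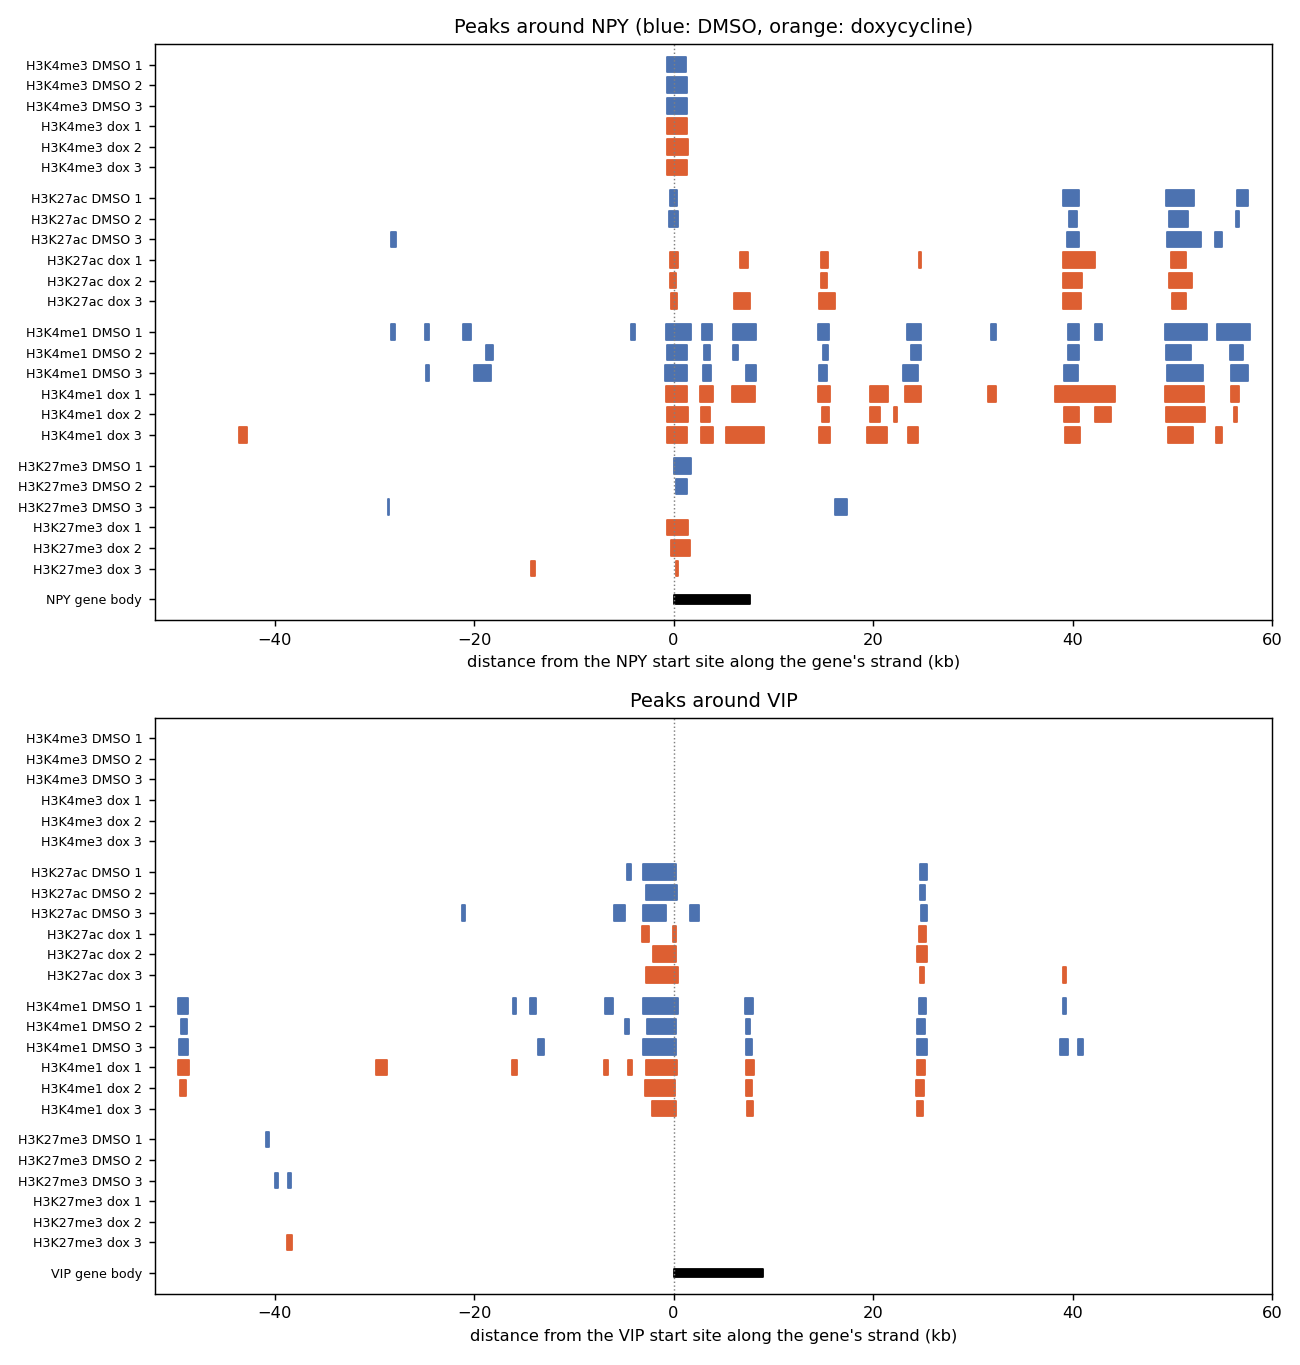
Peaks of H3K4me3, H3K27ac, H3K4me1 and H3K27me3 in each library around NPY (upper panel) and VIP (lower panel), drawn by distance from the start site in kb, with DMSO in blue, doxycycline in orange and gene bodies in black. NPY carries H3K4me3 in all 6 libraries and an H3K27ac region 14.6 to 16.2 kb downstream in the 3 doxycycline libraries alone, and VIP shows no H3K4me3 peak.

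Over all 10 genes, 74 separate distal H3K27ac regions lay in the gene bodies or within 50 kb. Of these, 20 were called in all 6 libraries and 33 in a single library, 1 was called only in the 3 doxycycline libraries (at NPY) and 2 only in the 3 DMSO libraries (at GAP43 and NEFL). Over all chromosomes, 0.670% of distal H3K27ac regions had the doxycycline-only pattern and 3.21% the DMSO-only pattern. H3K4me1 peaks overlapped 51 of the 74 regions. No share over all chromosomes is given for the counts of 20, 33 and 51, so they cannot be read as a result about these genes. ELAVL4 and GAP43 had 5 distal regions each that were present in all 6 libraries. By share of the window under H3K27ac, ELAVL4 (24.1 to 38.2%) and TUBB3 (20.2 to 40.7%) overlapped each other, as did TUBB3 and GAP43 (18.1 to 29.1%), and NEFL (8.40 to 19.7%) overlapped GAP43 and NEFM (6.79 to 9.17%). The other 5 genes lay between 1.59 and 7.86%, which overlapped the NEFM range. The median share was 7.03% over the 10 genes and 4.34% over all genes.

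A list of 45 related genes gives the setting of these values. H3K4me3 was present in all 6 libraries at 40 of them (71.9% of all genes) and H3K27ac at 31 (64.2% of all genes). The stathmins STMN1 and STMN3 and the RNA-binding family members ELAVL1, ELAVL2 and ELAVL3 had both marks in all 6 libraries, and all 9 growth-cone and microtubule genes did as well. None of these genes had H3K27me3 at a start site. Among the intermediate filaments, NEFH, PRPH and NES had H3K4me3 and H3K27ac in all 6 libraries and no H3K27me3, as NEFL and NEFM did, whereas VIM had H3K27me3 in all 6 libraries. The 9 other neuropeptide genes were more mixed. PNOC, TAC1 and CALCA lacked H3K4me3 in all 6 libraries, as VIP did, and TAC1, PENK and ADCYAP1 had H3K27me3 in all 6. The receptors NPY1R, NPY5R, VIPR1 and VIPR2 also had H3K27me3 in all 6 libraries.

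Of the 45 related genes, 2 had longer H3K27ac cover in every doxycycline library and 5 had shorter cover, beside 3.30% and 11.4% of all genes. VGF, a secreted precursor induced by neurotrophins, had 5.95, 5.41 and 4.50 kb in DMSO and 11.1, 9.48 and 8.17 kb in doxycycline. SCG2, a secretory granule protein, had 13.1, 13.1 and 11.2 kb against 13.4, 24.2 and 15.5 kb. The 5 shorter ones were TUBA1A, SNAP25, SST, CARTPT and VIPR1. At CARTPT, a neuropeptide precursor, the cover was 26.5, 24.4 and 17.1 kb in DMSO and 5.65, 11.3 and 6.42 kb in doxycycline. CALCA was the only gene of the list whose start-site H3K27ac separated the treatments, with peaks in 3 of 3 DMSO and 0 of 3 doxycycline libraries.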

How the data were processed

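Peak lists of 30 ChIP-seq libraries were analysed. The other 4 of the 34 samples are inputs, which entered only through the calls. Groups came from the labels. The authors used Bowtie2, SAMtools and MACS2, per the submitters' processing notes, with hg38, and kept reads with a mapping quality of at least 30. MACS2 2.1.1.20160309 called each library alone against an input, taking reads as single-ended, as the file headers record. Peaks of H3K4me1, H3K27ac and H3K27me3 were called in broad mode (q 0.05, linked at q 0.1), and H3K4me2 and H3K4me3 in narrow mode at p 1e-05, although the methods give q 0.05. The inputs of replicates 1 and 3 have the same read totals in each treatment and may be one library. No list had a peak past a chromosome's end in hg38. The deposited pileup is coverage (signal) at a peak and was not used further. The −log10 of the p-value and of the q-value, as deposited, served only to filter or shorten lists, and the deposited fold enrichment, a ratio to local input, was ranked within each list because it depends on depth. How depth sets the number and width of peaks was not tested.

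Start sites and bodies were from GENCODE release 44 (19970 protein-coding genes, chromosomes 1 to 22 and X). A peak counted where it shared 1 base or more with a window of 1 kb on each side of any start site. Covered length was summed over the body and 50 kb flanks. A distal region is the union of overlapping peaks of 6 libraries with no base within 1 kb of a protein-coding start site. Per gene, the exact two-sided permutation test over 20 assignments was used, with Benjamini-Hochberg adjustment over all genes tested. limma 3.58.1 (R 4.3.3; trend; genes covered in at least 3 libraries) was an alternative. The steps were tested on simulated data. Same-numbered libraries deviated together from their group means in log2 covered length (Pearson r across genes 0.143 to 0.596 over the 12 pairs of 4 marks), so numbers were taken to pair libraries there. For H3K27me3 they did not (-0.208 to 0.737). Python 3 scripts did the rest. All 10 members are named. Distal H3K27ac regions were named if called in 3 of 3 libraries of one treatment and 0 of 3 of the other, or as the widest in all 6. Further regions were chosen after their values were seen. The members and lists were chosen with earlier results of these data known. A further gene of the sympathetic marker list is not reported here.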

Additional observations from a re-analysis of the deposited data

How the results depend on the processing

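Of 330 counts of members recomputed under alternatives (30 counts in all), 266 stayed within 1.5 times and 64 moved. Counts by same-numbered pairs or with 1 library left out could only stay or rise, because both rules are looser than the main one. Of 386 recomputed log2 ratios of covered length, 374 moved by less than the replicate spread, 11 by more, and 1 reversed: NEFL H3K27ac was 0.06 over the gene body alone. A reversal was counted only for members whose groups did not overlap in the main setting. For other members, a change of sign was counted by its size alone. For longer H3K27ac cover (1 member), the count was 2 with lists of equal length, 2 with 25 kb flanks, 2 over gene bodies, 2 by same-numbered pairs (replicate block), 0 by limma and 0 by limma with the replicate block. ELAVL4 was among those counted except by limma. For shorter H3K27ac cover (3 members), it was 1 with peaks of −log10 q of 3 or more (NEFM), 1 over gene bodies (INA), 5 by pairs, 0 by limma and 1 by limma with the block (NEFL). For H3K4me3, longer cover (0) gave 1 with 25 kb flanks, 1 over gene bodies and 2 by pairs, and shorter cover (1) gave 2 over gene bodies, 4 by pairs and 0 by limma. H3K4me3 ranks gave 2 higher and 2 lower by pairs (1 and 1), and 0 lower with the canonical start site alone. For H3K4me1, presence in all 6 libraries fell from 7 to 3 members with −log10 q of 3 or more, longer cover (0) gave 1 by pairs, and shorter cover (0) gave 1 with equal lengths, 3 by pairs and 2 by limma with the block. H3K4me1 ranks (0 and 0) gave 1 higher and 2 lower by pairs and 2 lower with a 2.5 kb window. By pairs, H3K4me2 ranks gave 3 lower, H3K27ac ranks 2 higher, and H3K27me3 cover 1 longer, where numbers were only shared. Apart from pairs and left-out libraries, the cause of these moves was not tested. Except for limma, the share of all genes under each alternative is not given here, nor is it with 1 library left out. These counts therefore cannot be read as a result about the members.

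Leaving out 1 library at a time gave 1 to 2 members longer and 3 to 6 shorter for H3K27ac (6 without DMSO replicate 2 and 5 without doxycycline replicate 3), with ranks of 0 to 1 higher and 1 to 2 lower. A count could not fall below its main value in this step, so the lower ends do not show that a call is stable. For H3K4me3 it gave 0 to 3 longer (3 without doxycycline replicate 3), 1 to 2 shorter, 1 to 2 higher and 1 to 2 lower in rank. For H3K4me1 it gave 0 to 2 shorter, 0 to 1 higher and 0 to 1 lower in rank. For H3K4me2 it gave 0 to 2 longer, 0 to 1 shorter, 0 to 1 higher and 0 to 2 lower in rank. For H3K27me3 it gave 0 to 1 present throughout (NPY, without DMSO replicate 3), 0 to 1 longer and 0 to 1 shorter. Over all genes, the replicate block took limma's H3K27ac calls from 34 longer and 372 shorter to 431 and 1323, H3K4me1 from 5 and 8 to 351 and 2601, H3K4me2 from 0 and 0 (141 at an unadjusted p under 0.05) to 163 and 23, and H3K4me3 from 0 and 0 (642) to 172 and 199. For H3K27me3, limma called 0 (50 at an unadjusted p under 0.05), and 0 (224) with the block. The lists give no position below the callers' thresholds, so an absent peak means only that none was called at this depth.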
